A study of Arabidopsis thaliana with 12 samples.

Results

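Messenger RNA levels of 10 extensin genes of Arabidopsis thaliana were examined across 4 genotypes: AT1G26240, AT1G26250, EXT3 (AT1G21310), EXT4 (AT1G76930), HRGP1 (AT3G54590), AT2G43150, AT1G23720, AT4G08400, AT4G08410 and AT3G28550. They were chosen by name, as proline-rich extensin-like genes, out of 26093 genes in the deposited table of FPKM (fragments per kilobase of gene, scaled to library depth). The choice was made with results of these libraries known, and AT1G26240 was known as one of the largest rises in atg2-4. The levels below are therefore a description. Tests are given for lon2-8 against Col-0 and for lon2-8 atg2-4 against each single mutant, while atg2-4 and the double mutant are set beside Col-0 as values only. The test of lon2-8 reuses the Col-0 libraries of the comparison in which AT1G26240 was known. The test of the double mutant against atg2-4 reuses its atg2-4 libraries. The test of the double mutant against lon2-8 reuses no library of that comparison. It shares the atg2-4 mutation with it, and its spread came from a fit to all 12 libraries. Results of these tests are therefore not independent of the choice of genes. All 10 genes passed the expression filter.

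The groups were the wild type Col-0, the mutant lon2-8, the mutant atg2-4 and the double mutant lon2-8 atg2-4, all in the Col-0 background, with 3 libraries each. LON2 is a protease of the peroxisome, and ATG2 is a protein needed to form autophagosomes. RNA was taken from whole seedlings grown in continuous light on a plant nutrient medium. Their age is given as 6 days in one label and 8 days in another.

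Extensins are rod-shaped glycoproteins that are secreted into the plant cell wall. Their repeats hold a serine followed by a run of prolines, which are hydroxylated and then decorated with arabinose, and tyrosines nearby allow peroxidases to cross-link the proteins into a network. Extensins are best known from walls that stop expanding, from wounded or infected tissue and from root hairs, whose tips need correctly modified extensins to grow.

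The repeats can be read in the genes themselves. The densest 150 bases of the coding sequence are shown here for 4 genes, from the RefSeq TAIR10.1 genome, because they carry the feature that defines the family. Capitals mark a serine codon followed by 4 proline codons in the reading frame, spelled TCNCCNCCNCCNCCN, and lower-case letters are the codons between these blocks.
AT1G26240, chr1:9079298-9079447, minus strand: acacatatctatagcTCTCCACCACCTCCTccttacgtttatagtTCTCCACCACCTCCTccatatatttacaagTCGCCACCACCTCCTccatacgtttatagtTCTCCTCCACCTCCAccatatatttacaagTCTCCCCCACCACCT
AT1G26250, chr1:9084092-9084241, plus strand: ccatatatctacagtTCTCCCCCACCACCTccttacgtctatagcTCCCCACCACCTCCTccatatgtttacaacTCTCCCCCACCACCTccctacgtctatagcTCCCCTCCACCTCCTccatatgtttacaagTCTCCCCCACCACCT
EXT3, chr1:7454689-7454838, minus strand: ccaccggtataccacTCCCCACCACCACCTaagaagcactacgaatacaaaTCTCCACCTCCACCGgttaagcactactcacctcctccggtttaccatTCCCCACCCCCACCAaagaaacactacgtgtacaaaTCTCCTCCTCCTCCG
AT3G28550, chr3:10703630-10703779, minus strand: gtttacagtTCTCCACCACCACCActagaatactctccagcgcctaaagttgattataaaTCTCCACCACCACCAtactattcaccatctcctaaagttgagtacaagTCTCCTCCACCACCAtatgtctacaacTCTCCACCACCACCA
AT1G26240 and AT1G26250 held 5 such blocks in this stretch, and EXT3 and AT3G28550 held 4. Over the whole coding sequence the number of blocks ran from 9 in EXT4 to 70 in AT3G28550. Of 27562 coding sequences of the genome, 0.932% held at least 1 block and 0.116% at least 5. Proline codons (CCN) made up 22.5% of the codons in EXT4 and 46.0% in AT1G26240, and tyrosine codons made up 7.85% in EXT4 and 20.8% in AT1G26250.

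The 10 genes are spread over 4 chromosomes, and 2 pairs lie near each other. AT1G26240 (chr1:9077874-9079646, minus strand, 1 exon) and AT1G26250 (chr1:9083838-9085464, plus strand, 1 exon) point away from each other with 4191 bases between them and no other protein-coding gene there. Their coding sequences were 76.5% identical. AT4G08400 (chr4:5323606-5325374) and AT4G08410 (chr4:5338819-5341209), both on the minus strand, lie 13444 bases apart with the protein-coding gene AT4G08406 between them. They were 71.9% identical in coding sequence. The 250 bases before the annotated start of these 4 genes are shown because the members of each pair can then be compared with how their levels moved. Capitals mark TTGAC, the core of the W-box bound by WRKY transcription factors.
AT1G26240, chr1:9079647-9079896, minus strand: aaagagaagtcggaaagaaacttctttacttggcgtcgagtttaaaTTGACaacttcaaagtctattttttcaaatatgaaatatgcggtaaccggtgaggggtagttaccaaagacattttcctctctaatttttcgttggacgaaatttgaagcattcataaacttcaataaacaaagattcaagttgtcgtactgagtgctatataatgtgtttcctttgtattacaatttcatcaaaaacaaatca
AT1G26250, chr1:9083588-9083837, plus strand: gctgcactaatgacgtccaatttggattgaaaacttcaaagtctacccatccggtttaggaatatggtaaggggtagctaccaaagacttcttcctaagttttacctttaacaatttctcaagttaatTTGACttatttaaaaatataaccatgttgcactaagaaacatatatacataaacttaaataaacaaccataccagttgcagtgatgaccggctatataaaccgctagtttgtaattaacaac
AT4G08400, chr4:5325375-5325624, minus strand: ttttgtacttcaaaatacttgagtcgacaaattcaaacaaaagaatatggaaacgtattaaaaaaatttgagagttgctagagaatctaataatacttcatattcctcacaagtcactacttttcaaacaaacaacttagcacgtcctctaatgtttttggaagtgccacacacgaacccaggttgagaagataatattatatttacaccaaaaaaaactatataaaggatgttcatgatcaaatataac
AT4G08410, chr4:5341210-5341459, minus strand: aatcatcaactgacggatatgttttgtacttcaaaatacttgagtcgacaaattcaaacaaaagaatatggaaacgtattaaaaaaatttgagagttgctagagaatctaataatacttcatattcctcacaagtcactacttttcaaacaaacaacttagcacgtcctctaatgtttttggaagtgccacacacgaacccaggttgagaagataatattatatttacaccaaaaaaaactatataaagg
From 250 bases before to 50 bases after the start, the windows of AT4G08400 and AT4G08410 shared an unbroken run of 279 bases. The longest run shared by AT1G26240 and AT1G26250 was 14 bases, and these windows were 56.0% identical in an end-to-end alignment. TTGAC on either strand was present in 6 of the 10 windows and in 50.5% of the 27443 windows of all genes. The G-box CACGTG was in none of the 10 and in 7.68% of all windows, and the root hair element, searched by its published consensus, was in none of the 10 and in 0.867% of all windows. These are matches of letters, not binding sites.

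Some of these genes share sequence with others, which limits what their FPKM can say. AT1G26255, annotated on the opposite strand, covers 1609 bases of AT1G26250, and 71.1% of the 150-base windows of AT1G26250 lie within it. The fragments given to AT1G26255 were 0.996 to 1.06 times those of AT1G26250 in the 12 libraries, so nearly equal numbers of fragments are listed under both names. AT1G21313 overlaps 522 bases of EXT3 on the opposite strand. No source used here says whether the counting used strand, so the genes of each overlap cannot be told apart. AT4G08400 shares 38.3% of its 150-base windows with AT4G08410, which shares 26.8% of its own, so fragments may have been split or dropped between them. The other 6 genes share no such window with any gene.

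The libraries held 14481170 to 18690658 fragments counted in genes. The 10 extensins took 1.59% to 1.76% of them in Col-0 and 2.08% to 2.27% in the mutants. LON2 RNA was at 25.9 ± 1.62 FPKM (SD, n = 3) in Col-0 and 22.3 ± 0.840 in atg2-4, and lower in the genotypes with lon2-8, at 11.6 ± 0.472 in the single and 4.78 ± 0.502 in the double mutant. ATG2 RNA was between 6.31 and 7.71 FPKM in the mean of each genotype. For the 6 single-mutant samples the labels contradict each other, one field giving lon2-8 where another gives atg2-4, and the groups here follow the column names of the table, with which the LON2 levels go. FPKM was computed over the whole gene span, introns included, so levels of genes with introns, EXT4 above all, are understated beside those of single-exon genes.

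**Figure D1:**
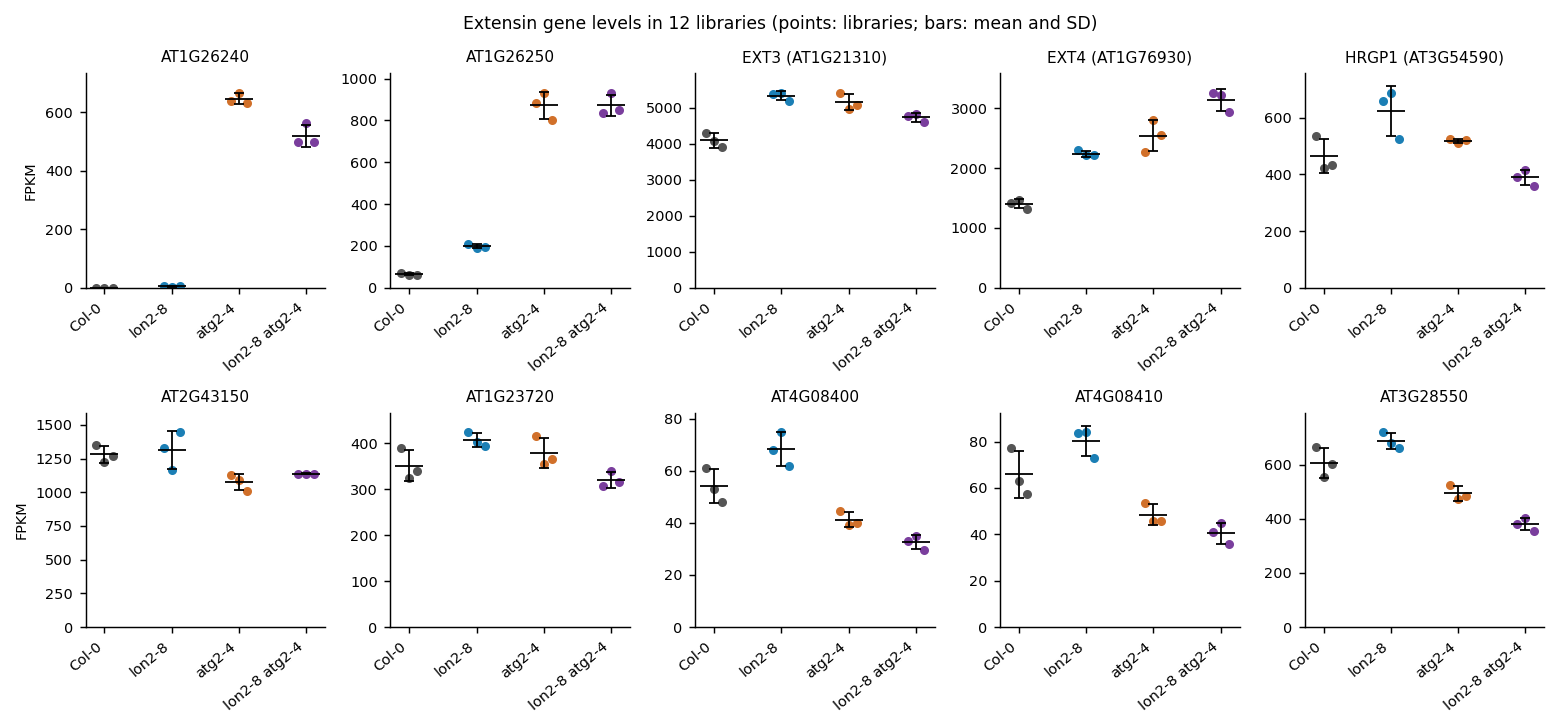
Level of each of the 10 extensin genes in FPKM (linear axis from 0, one panel per gene) in the 3 libraries of each genotype, with the mean and SD. AT1G26240 and AT1G26250 are far higher in both genotypes with atg2-4, EXT4 is highest in lon2-8 atg2-4, and AT4G08400, AT4G08410 and AT3G28550 are highest in lon2-8 and lowest in lon2-8 atg2-4.

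AT1G26240, a predicted structural extensin, went from almost no RNA in Col-0 to the fifth highest level of the 10 genes wherever atg2-4 was present. Its FPKM in the 3 Col-0 libraries was 0.471, 0.611 and 0.498, which is 14, 20 and 14 fragments. In lon2-8 it was 5.22, 3.40 and 5.38 FPKM, or 144, 111 and 171 fragments. In atg2-4 it was 637, 666 and 631 FPKM, and in the double mutant 498, 563 and 498. No library of any genotype overlapped those of another, and the order was Col-0, lon2-8, lon2-8 atg2-4 and atg2-4 from low to high. The mean in lon2-8 was 8.86 times that in Col-0 (difference of log2(FPKM + 1) 1.87 ± 0.11 SE, limma adjusted p = 1.03e-07), a log2 difference that was 2.91 with an addition of 0.1 FPKM in place of 1 and 3.07 with voom on the recovered fragments. The mean in the double mutant was 111 times that in lon2-8 (6.54 ± 0.11, limma adjusted p = 8.57e-14). Against Col-0 the mean was 1224 times as high in atg2-4 and 986 times as high in the double mutant, values that rest on a few fragments in Col-0 and are given without a test. The addition of 1 FPKM before the logarithm holds the atg2-4 difference at 8.72 on the log2 scale, and with an addition of 0.1 it was 10.01. The double mutant lay below atg2-4 in all libraries, at 0.806 times its mean, a difference of -0.31 that did not pass (limma adjusted p = 0.0977). The difference passed without lon2-8 library 2 (limma adjusted p = 0.00370) and with voom on the recovered fragments (limma adjusted p with voom = 5.37e-08). The genotype lon2-8 is not part of this comparison, but its libraries enter the spread that all genotypes share in the fit. Without that library the difference was still -0.31, with an SE of 0.052 in place of 0.11.

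AT1G26250, the neighbour of AT1G26240 and also a predicted structural extensin, had a clear level in Col-0 and also rose in lon2-8 over Col-0 and in the double mutant over lon2-8, by smaller factors. Its FPKM was 70.4, 63.0 and 59.7 in Col-0 and 209, 190 and 196 in lon2-8. It was 881, 932 and 803 in atg2-4 and 834, 930 and 848 in the double mutant. The 2 genotypes with atg2-4 overlapped, and both lay above lon2-8, which lay above Col-0. The mean was 3.08 times as high in lon2-8 as in Col-0 (1.61 ± 0.067 on the log2 scale, limma adjusted p = 6.94e-09) and 4.39 times as high in the double mutant as in lon2-8 (2.13 ± 0.067, limma adjusted p = 3.35e-11). The difference of the double mutant from atg2-4 was -0.00 ± 0.067 (limma adjusted p = 0.997). Against Col-0 the mean was 13.5 times as high in atg2-4 and in the double mutant alike. Since AT1G26255 overlaps it, the 2 loci cannot be told apart here; AT1G26255's mean FPKM went from 59.8 in Col-0 through 184 in lon2-8 to 820 in atg2-4 and 821 in lon2-8 atg2-4. Within Col-0 the level of AT1G26250 was far above that of AT1G26240 (mean 64.4 against 0.527 FPKM), while in atg2-4 the means were 872 and 645.

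The genes whose levels ran closest to AT1G26240 were sought among all 20662 genes tested, by the root mean squared difference of log2(FPKM + 1) over the 12 libraries after each gene was centred on its own mean. The nearest was AT1G26390, a berberine bridge enzyme-like oxidase, at a distance of 0.36, with mean FPKM of 0.534 in Col-0 and 3.29 in lon2-8 against 353 in atg2-4 and 356 in lon2-8 atg2-4. GLP9, a germin-like protein, followed at 0.57, with 2.94, 7.23, 725 and 488 FPKM in the same order. The next were AT1G08763, a non-coding RNA, at 0.73, the cupin AT5G38910 at 0.74 and AT3G55790, an uncharacterized protein, at 0.89. AT5G38910 and AT3G55790 were listed at 0 in Col-0 and had means of 131 and 93.3 FPKM in atg2-4. AT1G26250 came 44th in this order, at 2.36, and the other 8 extensins were at 3.52 or more.

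**Figure D2:**
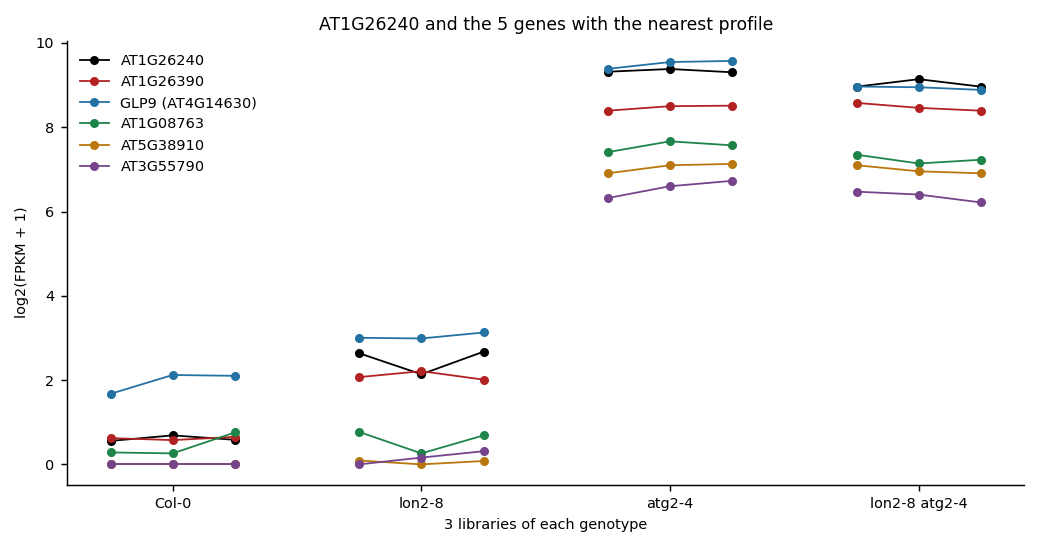
log2(FPKM + 1) of AT1G26240 and of the 5 genes with the nearest profile in the 3 libraries of each genotype (points joined within a genotype). All 6 genes lie near the bottom in Col-0 and lon2-8 and high in atg2-4 and lon2-8 atg2-4; AT1G26240 is at 0.527, 4.67, 645 and 519 FPKM in the mean of the 4 genotypes in the order drawn.

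EXT3, the extensin that is needed to build the cell plate in the embryo, was the most abundant member in every genotype. Its FPKM was 4301, 4091 and 3901 in Col-0 and 5392, 5422 and 5192 in lon2-8. The atg2-4 libraries had 5414, 4978 and 5086 FPKM and those of lon2-8 atg2-4 had 4783, 4823 and 4600. All mutant libraries lay above all Col-0 libraries, and the double mutant lay below both single mutants. EXT3 rose 1.30-fold in lon2-8 (0.38 ± 0.043 on the log2 scale, limma adjusted p = 3.32e-05) and was 0.887 times as high in the double mutant as in lon2-8 (-0.17 ± 0.043, limma adjusted p = 0.00443). The double mutant did not pass against atg2-4 (-0.12 ± 0.043, limma adjusted p = 0.0955), although the libraries did not overlap. With voom on the recovered fragments this difference passed (limma adjusted p with voom = 0.00110). AT1G21313, which overlaps EXT3, had a mean of 7772 FPKM in Col-0 libraries and of 10275 in lon2-8, with 9804 in atg2-4 and 9162 in lon2-8 atg2-4.

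EXT4, an extensin known to be induced by wounding, had its highest level in the double mutant. Its FPKM was 1417, 1475 and 1324 in Col-0 and 2296, 2218 and 2212 in lon2-8. In atg2-4 it stood at 2274, 2806 and 2556, and in lon2-8 atg2-4 at 3262, 3224 and 2932. The single mutants overlapped each other, above Col-0 and below the double mutant. The mean rose 1.60-fold in lon2-8 over Col-0 (0.67 ± 0.067, limma adjusted p = 1.21e-05) and was higher again in the double mutant, at 3139 against 2242 FPKM in lon2-8 (0.48 ± 0.067, limma adjusted p = 5.04e-05). It was also 1.23 times as high in the double mutant as in atg2-4 (0.31 ± 0.067, limma adjusted p = 0.0137). That last call was lost without library 1 (limma adjusted p = 0.0515) or library 2 (limma adjusted p = 0.0555) of the double mutant. Against Col-0 the mean was 1.81 times as high in atg2-4 and 2.23 times as high in the double mutant, with no overlap.

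AT3G28550, the longest member by gene span, was highest in lon2-8 and Col-0 and lowest in the double mutant. Its FPKM was 664, 555 and 601 in Col-0 and 721, 681 and 662 in lon2-8. With atg2-4 the values were 525, 473 and 484 in the single and 381, 402 and 356 in the double mutant. The libraries of atg2-4 lay below those of Col-0 and lon2-8, and those of the double mutant lay below all others. AT3G28550 fell to 0.552 times lon2-8 (-0.86 ± 0.064, limma adjusted p = 1.76e-07) and to 0.769 times atg2-4 (-0.38 ± 0.064, limma adjusted p = 0.00315) in the double mutant. Its difference in lon2-8 was 0.18 ± 0.064 and did not pass (limma adjusted p = 0.0571). It passed without Col-0 library 1 (limma adjusted p = 0.0141) and without atg2-4 library 1 (limma adjusted p = 0.0492). It also passed with each library centred on its median (limma adjusted p = 0.0215) and with the library number as a block (limma adjusted p = 0.0308). With voom on the recovered fragments it passed too (limma adjusted p with voom = 5.88e-04).

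AT4G08400 and AT4G08410 followed the same order at a much lower level. AT4G08400 was at 61.2, 52.9 and 48.1 FPKM in Col-0 libraries and 68.1, 74.9 and 62.0 in lon2-8. The atg2-4 libraries had 44.5, 39.0 and 39.9 FPKM and those of lon2-8 atg2-4 had 32.9, 35.1 and 29.6. AT4G08410 was at 77.2, 62.9 and 57.5 FPKM in Col-0 libraries and 83.8, 84.1 and 72.7 in lon2-8. In atg2-4 it stood at 53.6, 45.9 and 45.8, and in lon2-8 atg2-4 at 41.0, 44.8 and 35.7. In both genes every double mutant library lay below every atg2-4 library, and these below every Col-0 library. In the double mutant AT4G08400 fell to 0.476 times lon2-8 (-1.05 ± 0.091, limma adjusted p = 7.09e-07) and AT4G08410 to 0.505 times (-0.97 ± 0.11, limma adjusted p = 6.49e-06). Because they share sequence, these are not independent of each other.

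AT4G08400 also passed in the other tests, by a narrow margin. It rose 1.26-fold in lon2-8 (0.34 ± 0.091, limma adjusted p = 0.0182), which was lost without Col-0 library 2, Col-0 library 3 or lon2-8 library 2 (limma adjusted p = 0.0556, 0.0787 and 0.0791). It was 0.791 times as high in the double mutant as in atg2-4 (-0.33 ± 0.091, limma adjusted p = 0.0408), which was lost without any of the 3 atg2-4 libraries, without library 1 or 3 of the double mutant, and without Col-0 library 2 or lon2-8 library 1 (limma adjusted p from 0.0538 to 0.155). For AT4G08410 neither comparison passed, with 0.29 ± 0.11 in lon2-8 (limma adjusted p = 0.0701) and -0.25 ± 0.11 in the double mutant against atg2-4 (limma adjusted p = 0.170). The first of these passed without Col-0 library 1 (limma adjusted p = 0.0132). It also passed with each library centred on its median (limma adjusted p = 0.0440) and with the library number as a block (limma adjusted p = 0.0144). With voom on the recovered fragments both passed (limma adjusted p with voom = 0.00111 and 0.0184).

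HRGP1, a hydroxyproline-rich glycoprotein of the same repeat type, and AT1G23720 were also highest in lon2-8 and lowest in the double mutant, with atg2-4 near Col-0. HRGP1 was at 534, 424 and 434 FPKM in Col-0 libraries and 659, 688 and 524 in lon2-8. With atg2-4 the values were 525, 511 and 520 in the single and 392, 414 and 360 in the double mutant. Its lon2-8 and Col-0 libraries overlapped, and the double mutant lay below all others. HRGP1 rose 1.34-fold in lon2-8 (0.42 ± 0.099, limma adjusted p = 0.00793) and fell to 0.624 times lon2-8 in the double mutant (-0.67 ± 0.099, limma adjusted p = 8.67e-05). Against atg2-4 it fell to 0.750 times (-0.42 ± 0.099, limma adjusted p = 0.0205), a call lost without any of the 3 atg2-4 libraries or without library 3 of the double mutant (limma adjusted p from 0.0501 to 0.0846).

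AT1G23720 was at 389, 323 and 340 FPKM in Col-0 libraries and 424, 403 and 394 in lon2-8. The atg2-4 libraries had 416, 355 and 365 FPKM and those of lon2-8 atg2-4 had 306, 339 and 316. It fell to 0.788 times lon2-8 in the double mutant (-0.34 ± 0.071, limma adjusted p = 0.00129). Its rise in lon2-8 was 1.16-fold (0.22 ± 0.071, limma adjusted p = 0.0436). That call was lost without any of the 3 lon2-8 libraries, without Col-0 library 2 or 3, without library 3 of atg2-4 or of the double mutant (limma adjusted p from 0.0502 to 0.165), and with no expression filter (limma adjusted p = 0.0670). The difference from atg2-4 in the double mutant, -0.24 ± 0.071, did not pass (limma adjusted p = 0.0561), and passed without Col-0 library 1 (limma adjusted p = 0.0290). It also passed with the library number as a block (limma adjusted p = 0.0461) and with voom on the recovered fragments (limma adjusted p with voom = 3.23e-04).

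AT2G43150, which has the shortest coding sequence of the 10, varied least among the genotypes. It was at 1352, 1227 and 1266 FPKM in Col-0 libraries and 1326, 1168 and 1447 in lon2-8. In atg2-4 it stood at 1127, 1094 and 1006, and in lon2-8 atg2-4 at 1137, 1139 and 1132. The difference in lon2-8 was 0.03 ± 0.066 (limma adjusted p = 0.770), and that of the double mutant from atg2-4 was 0.08 ± 0.066 (limma adjusted p = 0.511). In the double mutant it was 0.865 times as high as in lon2-8 (-0.20 ± 0.066, limma adjusted p = 0.0207), which was lost without lon2-8 library 1, lon2-8 library 3 or double mutant library 3 (limma adjusted p = 0.0580, 0.0940 and 0.0513). Its highest and lowest genotype means differed 1.22-fold, against 1.27-fold for AT1G23720, 1.30-fold for EXT3 and 1224-fold for AT1G26240.

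In lon2-8 against Col-0, 7 of the 10 extensins rose and 0 fell, which was 0 also at an unadjusted limma p under 0.05 and with limma's voom on recovered fragments. AT2G43150, AT4G08410 and AT3G28550 did not pass. Among all 20662 genes tested, 9.06% rose and 14.1% fell in this comparison. The median difference of the 10 was 0.36 on the log2 scale, against -0.04 for all genes. When each library was instead centred on its median, the share of rises among all calls was 58.7% in place of 39.2%, and 9 of the 10 extensins were called. Leaving out 1 library at a time gave 5 to 9 calls.

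In lon2-8 atg2-4 against atg2-4, EXT4 rose and HRGP1, AT4G08400 and AT3G28550 fell, while 4.44% of all genes rose and 4.44% fell. The median difference was -0.25, against -0.02 for all genes. The count of 4 fell to 2 without any of the 3 atg2-4 libraries or without library 1 or 3 of the double mutant. In lon2-8 atg2-4 against lon2-8, AT1G26240, AT1G26250 and EXT4 rose and the other 7 fell. This comparison shares no library with the one in which AT1G26240 was known. It is still not independent of the choice of genes. Both comparisons hold the atg2-4 mutation, and the spread came from a fit to all 12 libraries. Here 25.3% of all genes rose and 24.6% fell, and the medians were -0.27 for the extensins and -0.01 for all genes. Without library 3 of the double mutant, or without lon2-8 library 1 or 3, 9 of the 10 were called.

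**Figure D3:**
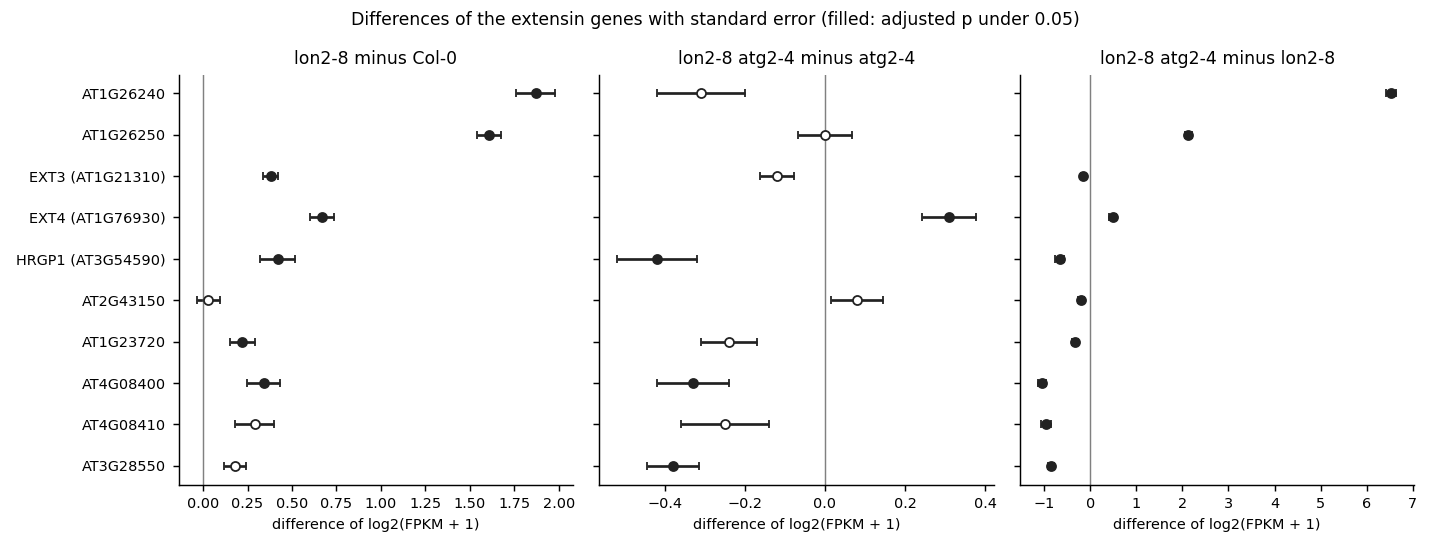
Difference of log2(FPKM + 1) with its standard error for each extensin gene in the 3 comparisons in which the genes were tested (each panel has its own linear axis), filled where the limma adjusted p was under 0.05. In lon2-8 minus Col-0, 7 of the 10 passed, and in lon2-8 atg2-4 minus lon2-8 AT1G26240 (6.54), AT1G26250 (2.13) and EXT4 (0.48) stand above 0 and the other 7 below.

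The genotypes with atg2-4 are set against Col-0 without a test. In atg2-4 the 3 libraries of AT1G26240, AT1G26250, EXT3 and EXT4 all lay above Col-0, and those of AT2G43150, AT4G08400, AT4G08410 and AT3G28550 all lay below. That is 4 above and 4 below of 10, where 23.9% of all genes lay wholly above and 32.3% wholly below. In the double mutant the same 4 lay above and HRGP1 joined the 4 below, where 25.1% of all genes lay above and 35.6% below. With 10 genes, counts this near the background shares are no result about the extensins. The genes below stood at 0.735 to 0.839 times Col-0 in atg2-4 and 0.602 to 0.886 times in the double mutant. For the gene lists described next, the adjusted p was used, by which 21.3% of all genes rose and 27.2% fell in atg2-4, and 22.0% rose and 30.1% fell in the double mutant. In the authors' deposited table, whose test is not stated, 9 of the 10 extensins are marked up in lon2-8, 6 up and 2 down in atg2-4, 4 up and 3 down in the double mutant against Col-0, and 1 up and 7 down in the double mutant against atg2-4. AT2G43150 has no mark in any of these comparisons of the authors' deposited table.

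The list of other classical extensins held 10 genes, of which 7 were tested. Here and in the lists that follow, a limma count of 0 in 1 direction was 0 also at an unadjusted p under 0.05 and with voom, unless those counts are given, and the median difference of all genes was between -0.05 and -0.01 in the 5 comparisons. In lon2-8, 6 of the 7 rose and 0 fell, with a median difference of 0.46. EXT12 rose 1.45-fold, from 283 ± 35.5 to 410 ± 54.6 FPKM (limma adjusted p = 0.00114), and EXT13 rose 1.49-fold (limma adjusted p = 0.00191). In the double mutant against lon2-8, 0 rose and 5 fell (median -0.57), among them EXT10, at 0.605 times (limma adjusted p = 1.22e-04). Against atg2-4, 0 rose and 4 fell (median -0.34). In atg2-4 against Col-0, 4 rose and 0 fell (median 0.29), and in the double mutant 2 rose and 0 fell (median -0.04), with 2 falls at an unadjusted limma p under 0.05 and 3 with voom. AT3G54580, the gene next to HRGP1 on chromosome 3, rose 1.61-fold in atg2-4, from 703 ± 76.4 to 1133 ± 60.1 FPKM (limma adjusted p = 8.64e-06), where HRGP1 stood at 1.12 times Col-0 with overlapping libraries; whether these differ was not tested.

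The root hair markers moved beside this group. All 12 were measured and none was at 0. Their summed level was 91.8 to 104 FPKM in Col-0, 116 to 148 in lon2-8, 96.6 to 111 in atg2-4 and 76.6 to 85.4 in the double mutant. In lon2-8, 7 of the 12 rose and 0 fell (median 0.38), among them COW1, a phospholipid transfer protein of root hair tips, at 1.56 times (limma adjusted p = 1.88e-04). In the double mutant 11 fell and 0 rose against lon2-8 (median -0.59), 2 fell and 0 rose against atg2-4 (median -0.27), and 5 fell and 0 rose against Col-0 (median -0.23). In atg2-4, 2 rose and 0 fell (median -0.01). The order lon2-8 above Col-0 above the double mutant is the one that AT4G08400, AT4G08410, AT3G28550, HRGP1 and AT1G23720 showed in their means. AT2G43150 had it too, with means of 1314, 1282 and 1136 FPKM, but its lowest mean was in atg2-4. This order leaves out atg2-4. There all libraries of AT4G08400, AT4G08410 and AT3G28550 lay below Col-0, at 0.761, 0.735 and 0.814 times in the mean. HRGP1 and AT1G23720 overlapped Col-0 there. The part of root hairs in these results was not tested, and in whole seedlings fewer hair cells and less RNA per cell cannot be told apart. In atg2-4 the summed root hair markers overlapped Col-0. GL2, a marker of non-hair epidermis, fell in atg2-4 to 0.570 times (limma adjusted p = 1.20e-05) and in lon2-8 to 0.758 times (limma adjusted p = 0.00691). The other non-hair marker, MYB66, passed in no comparison. Its mean level with lon2-8 alone was 2.30 FPKM against 2.18 for the wild type. Where atg2-4 was present its mean was lower, at 1.73 FPKM for the single and 1.60 for the double mutant. Of the 2 non-hair markers 0 rose in any comparison, and their summed level was 6.11 to 7.04 FPKM in Col-0, 5.40 to 6.06 in lon2-8, 3.68 to 4.62 in atg2-4 and 3.03 to 4.32 in lon2-8 atg2-4.

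**Figure D4:**
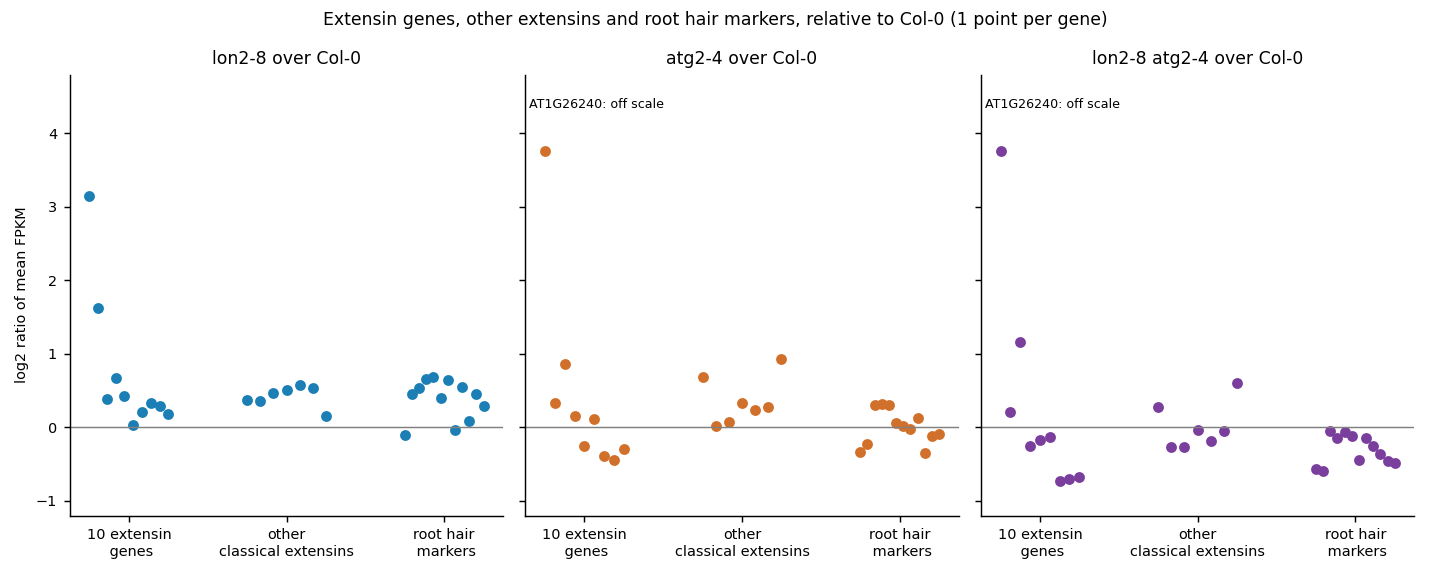
log2 of the ratio of mean FPKM to Col-0 in each mutant (1 point per gene, linear axis) for the 10 extensin genes, the 7 tested genes of the list of other classical extensins and the 12 root hair markers. AT1G26240 is off the scale in atg2-4 (1224 times) and lon2-8 atg2-4 (986 times); AT1G26250 (13.5 times in both) stands far above the other points, and the root hair markers lie mostly above 0 in lon2-8 and below 0 in lon2-8 atg2-4.

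Genes of wall peroxidases and of enzymes that modify extensins moved in part. Whether the peroxidases listed act on extensins was not tested. The wall peroxidases, of which 8 of 9 were tested, had 7 up and 1 down in lon2-8, 5 up and 2 down in atg2-4, and 5 up and 3 down in the double mutant against Col-0 (medians 0.76, 0.82 and 0.89). PER4, at 2.88 ± 0.157 FPKM in Col-0, rose to 6.71 ± 0.234 in lon2-8 (limma adjusted p = 5.48e-07). It stood at 19.9 ± 1.53 in atg2-4 (limma adjusted p = 1.28e-11) and at 24.4 ± 2.26 in lon2-8 atg2-4 (limma adjusted p = 4.69e-12). PRXCB rose 3.14-fold in atg2-4 (limma adjusted p = 4.71e-10). Against lon2-8 the double mutant had 3 peroxidases up and 3 down, and against atg2-4 2 up and 2 down, with AT5G39580 at 1.54 times (limma adjusted p = 0.00176). The prolyl hydroxylases that make the hydroxyproline moved little. Of 3 tested, 0 passed in lon2-8, in atg2-4 or in the double mutant against atg2-4, and 2 fell in the double mutant against lon2-8 and 2 against Col-0, with P4H2 at 0.782 times lon2-8 (limma adjusted p = 0.00216). At an unadjusted limma p under 0.05 1 was lower in each single mutant and 2 in the double mutant against atg2-4, and with voom these counts were 1 and 0.

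Of 8 glycosylation genes tested, 1 rose and 0 fell in lon2-8, 2 rose and 1 fell in atg2-4, and 2 rose and 4 fell in the double mutant against Col-0 and likewise against lon2-8, with 0 either way against atg2-4, where 3 were lower at an unadjusted limma p under 0.05 and 2 with voom. AT2G25260, annotated as an arabinosyltransferase-like protein for hydroxyproline, rose 1.21-fold in lon2-8 (limma adjusted p = 0.00953) and 1.70-fold in atg2-4 (limma adjusted p = 5.98e-07). AT3G01720, the galactosyltransferase that acts on extensin serines, was at 0.776 times lon2-8 in the double mutant (limma adjusted p = 1.16e-04).

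Proteins that carry extensin-like or proline-rich domains differed from list to list. Of 11 tested genes of the list of leucine-rich repeat extensins (LRX), the receptor kinase FERONIA and its RALF peptides, 6 rose and 1 fell in lon2-8, 3 rose and 3 fell in atg2-4, and 5 rose and 4 fell in the double mutant against Col-0. Against lon2-8 the double mutant had 3 up and 4 down, with LRX2 at 0.555 times (limma adjusted p = 1.64e-07) and LRX1, which acts in root hairs, at 0.542 times (limma adjusted p = 4.54e-06). Against atg2-4 it had 2 up and 1 down, with RALF23 at 1.15 times (limma adjusted p = 0.00566). Of 8 tested proline-rich receptor kinases and PRP proteins, 3 rose and 1 fell in lon2-8, 0 rose (1 with voom) and 3 fell in atg2-4, and 1 rose and 3 fell in the double mutant against Col-0. Against lon2-8 the double mutant had 1 up and 6 down, and against atg2-4 0 up and 2 down. PRP3, a proline-rich wall protein of root hairs, rose 1.56-fold in lon2-8 (limma adjusted p = 9.16e-04) and was at 0.542 times lon2-8 in the double mutant (limma adjusted p = 1.74e-05).

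Some other genes annotated as extensins fell in lon2-8 against Col-0, where 7 of the 10 rose and 0 fell. The 11 tested included all 7 tested genes of the list of other classical extensins, whose calls are counted again here. In lon2-8, 7 of the 11 rose and 2 fell. The falls were EPR1, an extensin-like gene expressed in germinating seeds, at 0.441 times (limma adjusted p = 4.48e-04) and AT5G59170 at 0.265 times (limma adjusted p = 4.94e-04). These 2 rose in the double mutant against atg2-4, AT5G59170 3.58-fold (limma adjusted p = 7.01e-04) and EPR1 1.95-fold (limma adjusted p = 0.00538), where 4 of the list fell. They were also the 2 that rose against lon2-8, where 5 fell. Of the 10 extensins, AT1G26240, AT1G26250 and EXT4 rose there too. AT5G59170 was near the floor in lon2-8, at a mean of 0.907 FPKM on 24, 11 and 17 fragments. This list had 5 up and 2 down in atg2-4, and 4 up and 0 down in the double mutant against Col-0, with 2 down at an unadjusted limma p under 0.05 and 3 with voom. Of 19 tested genes annotated as Ole e 1 and extensin family, 4 rose and 3 fell in lon2-8, 3 rose and 6 fell in atg2-4, 2 rose and 8 fell in the double mutant against Col-0, 3 rose and 10 fell against lon2-8, and 1 rose and 4 fell against atg2-4, with AT3G16670 at 0.480 times Col-0 in lon2-8 (limma adjusted p = 2.81e-06). Of 2 tested extensin-like receptor kinases, PERK10 fell in each of the 3 mutants against Col-0, and also in the double mutant against lon2-8, where it was at 0.833 times (limma adjusted p = 0.00469). PERK1 rose in the double mutant against Col-0 and against lon2-8, where it was at 1.15 times (limma adjusted p = 0.00181), and 0 of the 2 passed in the double mutant against atg2-4, where 1 was lower at an unadjusted limma p under 0.05 and with voom.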

How the data were processed

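Poly-A selected libraries of whole seedlings were sequenced as paired-end reads of 150 bases, per the labels. The submitters' processing notes list, with no role, bcl2fastq, STAR (2.5.1a), Salmon (0.8.2), Subread with featureCounts (1.4.6-p5), limma and edgeR; no source used here gives the genome build or the strand setting. FPKM for each gene and library were deposited by the authors, with a mark of direction for 4 comparisons; the sheets of those comparisons were not used. FPKM values were whole multiples of 1 fragment within 0.01 fragments, which gave the fragments per library. The gene length behind them equalled the TAIR10.1 RefSeq gene span (end minus start) within 1 base for 26031 of 26081 matched genes (99.8%), so TAIR10.1 coordinates are printed. For genes with few fragments, their number limits the precision.

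Columns were grouped by the genotype in their name, with 0 left unassigned, and library numbers follow those names. Tests covered the 20662 genes that reached 1 FPKM in 3 or more libraries. The model was limma (3.58.1, in R 4.3.3) on log2(FPKM + 1) for all 12 libraries, with a mean per genotype and a trended prior. It was two-sided, with Benjamini-Hochberg adjustment over all genes tested in a comparison and a threshold of 0.05. A fold change on this scale is understated for genes near 1 FPKM; ratios in the text are of mean FPKM. The fit was tested on simulated data. Alternatives were a pseudocount of 0.1, no filter, median centring, the library number as a block, each library left out, and, added after the data were seen, limma's voom on recovered fragments.

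The members and lists were chosen with earlier results of these data known. The text names all members, LON2 and ATG2, up to 2 genes of smallest adjusted p per list and comparison, and the 5 genes nearest to AT1G26240. Genes whose RefSeq product names an extensin were split, after the data were seen, into Ole e 1 proteins, kinases and others, and the others overlap the classical extensins. EXT11, AT4G08370 and AT3G49270 were not analysed here. Repeat blocks were counted in the coding sequence of 1 transcript per gene, and identities are from end-to-end alignments. Tables and plots were made in Python 3.11.15 with pandas 2.3.3, numpy 2.4.6 and matplotlib 3.10.9.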

Additional observations from a re-analysis of the deposited data

Results flagged for a closer look

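For several extensins every library lay on one side with a mutation in one background and on the other side in the other background. The difference between the effects was not tested for any of them. For lon2-8, AT1G26240 differed by 1.87 on the log2(FPKM + 1) scale from Col-0 and by -0.31 in the atg2-4 background. EXT3 (AT1G21310) differed by 0.38 from Col-0 and by -0.12 in the atg2-4 background, AT1G23720 by 0.22 and -0.24, and AT4G08400 by 0.34 and -0.33. In the atg2-4 background the differences of AT1G26240, EXT3 and AT1G23720 did not pass (limma adjusted p = 0.0977, 0.0955 and 0.0561). With voom on the recovered fragments they passed (limma adjusted p with voom = 5.37e-08, 0.00110 and 3.23e-04). Both of AT4G08400's passed, but the first did not without Col-0 library 2 or 3 or lon2-8 library 2 (limma adjusted p = 0.0556 to 0.0791), nor the second without any 1 of 7 libraries (limma adjusted p = 0.0538 to 0.155). For atg2-4, EXT3 differed by 0.33 from Col-0 and by -0.17 in the lon2-8 background. AT1G26240 is near 0 in Col-0, so its first value depends on the pseudocount.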

How the results depend on the processing

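No called value changed sign under an alternative. Of values that did not pass, AT2G43150 in lon2-8 minus Col-0 was 0.03 and turned to -0.04 without lon2-8 library 3 (-0.04 to 0.11 leaving out 1 library). AT1G26250 in lon2-8 atg2-4 minus atg2-4 was -0.00; it was 0.01 with median centring, 0.00 with voom and -0.06 to 0.05 leaving out 1 library. The target gene ATG2 (AT3G19190) in lon2-8 minus Col-0 was -0.02, and 0.02 with median centring and 0.03 without lon2-8 library 3 (-0.05 to 0.03 leaving out 1 library). Median centring turned the calls in lon2-8 against Col-0 from 1872 higher and 2907 lower to 2588 and 1818. In lon2-8 atg2-4 against atg2-4 the number of extensins called was 4; it was 8 with voom on the recovered fragments, and leaving out 1 library gave 2 to 5. Leaving out 1 library gave 1061 to 1862 genes called in that comparison (1835 with all), 3540 to 4864 in lon2-8 against Col-0, with 5 to 9 extensins, 9215 to 10369 in lon2-8 atg2-4 against lon2-8, with 9 to 10 extensins, 8801 to 9993 in atg2-4 against Col-0 and 9671 to 10808 in lon2-8 atg2-4 against Col-0. These fits have fewer samples; the cause of the count with voom was not tested. The log2 difference of AT1G26240 from Col-0 was 1.87 for lon2-8, 8.72 for atg2-4 and 8.41 for the double mutant; with a pseudocount of 0.1 these were 2.91, 10.01 and 9.70, and with voom 3.07, 10.21 and 9.90. With the replicate number as a block, 9 extensins were called in lon2-8 against Col-0, 5 in lon2-8 atg2-4 against atg2-4 and 10 against lon2-8, and 4578, 1639 and 10180 genes; the gains were AT4G08410 and AT3G28550 in the first and AT1G23720 in the second. Over all genes tested, libraries with the same number did not deviate together: 0 of 18 correlations of their deviations were over 0.1 (-0.06 to 0.05). For 6 of 12 libraries, the highest mean correlation with the other genotypes was at their own number. These values were taken over all genes and cannot tell whether the numbers pair the samples for the extensins. With median centring AT4G08400 no longer passed against atg2-4 (limma adjusted p = 0.0545), nor with no filter (limma adjusted p = 0.0615). Depth limits AT1G26240 in Col-0, at 14 to 20 fragments.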

Other observations

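In Col-0, 8 of the 10 extensins were highest in library 1, which was the highest for 31.8% of all genes tested. In atg2-4, 7 of the 10 were highest in library 1 (34.5% of all genes), and in lon2-8 atg2-4, 9 were highest in library 2 (33.3%). In lon2-8 the highest library was library 1 for 4 extensins, library 2 for 4 and library 3 for 2. The extensins share sequence and libraries, and these counts were noticed after the values were seen and not tested.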
